A study of Mus musculus with 9 samples.

Results

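The Z-disc is the plate at each end of a sarcomere, the contractile unit of striated muscle, where actin filaments of neighbouring sarcomeres are cross-linked and the ends of titin are held. In heart muscle it also carries adaptor proteins with LIM and PDZ domains, which bind its cross-linker alpha-actinin, and proteins that shuttle to the nucleus when load changes. The genes described are 10 of the 43629 genes in the count tables: Csrp3, Actn2, Ldb3, Myoz2, Tcap, Synpo2l, Pdlim3, Pdlim5, Ankrd1 and Fhl2. They were chosen by symbol as Z-disc genes of heart muscle, each symbol matched 1 Ensembl identifier, and all 10 were among the 16561 genes tested.

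RNA came from ventricular cells of CD-1 mouse embryos at embryonic day 13.5, with the ventricles of a litter digested together, that were cultured for 48 h, transfected with 0.012 pmol siRNA and harvested 72 h later. One group received a pool of 4 siRNAs against Dnmt3a, which encodes a DNA methyltransferase that methylates unmethylated sites (DNMT3a siRNA). A second group received 4 siRNAs against Dnmt3b, which encodes a related enzyme (DNMT3b siRNA), and the controls received the AllStars negative control siRNA. At harvest the cells of all 3 groups were enriched magnetically for VCAM1, a surface protein used to select embryonic cardiomyocytes, and each group gave 3 libraries, numbered 1 to 3. Nothing in the labels says that libraries of a group came from separate cultures, so p-values measure the spread between these libraries, which may be technical.

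Each library held between 27852412 and 35896018 reads assigned to genes. Dnmt3a itself lay between 40.3 and 52.9 CPM (a gene's count relative to its library's total, scaled between libraries by the TMM method) after DNMT3a siRNA, between 215 and 235 CPM after DNMT3b siRNA, and between 232 and 275 CPM in controls. Dnmt3b lay between 4.70 and 4.87 CPM after DNMT3a siRNA, between 1.17 and 2.43 CPM after DNMT3b siRNA, and between 4.26 and 4.33 CPM in controls. Libraries DNMT3a 2 and control 2 stood apart from the other libraries of their groups on the first principal component, at 11.6 against -28.5 and -17.5, and at 10.7 against -35.3 and -30.9. Counts of members are therefore also given without all libraries numbered 2. In the DNMT3b group it was library 1 that stood apart, at 16.4 against 36 and 37.6. Leaving out number 2 thus removes a DNMT3b library that did not stand apart. The 18 genes of the cardiomyocyte marker list summed to 6634 to 8239 CPM after DNMT3a siRNA, 8228 to 9629 CPM after DNMT3b siRNA and 3145 to 3995 CPM in controls. Fibroblast markers were present in these sorted cells too, and 11 of them summed to 39987 to 43569 CPM after DNMT3a siRNA, 37687 to 44494 CPM after DNMT3b siRNA and 39502 to 59033 CPM in controls.

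No exon of these genes overlaps an exon of another annotated gene on either strand (GRCm38, GENCODE M21). RefSeq start sites (GRCm38.p6) were found for 9 of the 10, all but Tcap. The 250 bases before each start were searched on both strands for the CArG box (bound by serum response factor), the MEF2 site and the MCAT element CATTCC (bound by TEAD factors), all known from muscle promoters. Of all 32851 RefSeq windows of this length, 1.47% held the CArG box, 0.51% the MEF2 site and 12.64% the MCAT element. These matches are descriptions of sequence, not of binding. The windows below, each at the start nearest the gene's annotated 5' end, are shown because they hold the matches of 3 kinds and because Fhl2, whose level differed least between groups, holds one too. For Ankrd1 and Fhl2 these RefSeq starts lie 255 and 223 bases inside the gene as annotated in GENCODE, so their marked matches lie within that gene span. Capitals mark the matches, which do not overlap, and the sequences run 5' to 3' on the gene's own strand.
Synpo2l, chr14:20668355-20668604, minus strand, MEF2 site from position -109: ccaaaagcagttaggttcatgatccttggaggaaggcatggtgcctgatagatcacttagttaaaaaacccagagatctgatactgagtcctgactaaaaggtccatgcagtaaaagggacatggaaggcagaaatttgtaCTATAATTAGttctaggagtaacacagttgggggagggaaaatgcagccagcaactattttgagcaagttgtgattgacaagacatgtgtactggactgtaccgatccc
Myoz2, chr3:123034988-123035237, minus strand, MEF2 site from position -33: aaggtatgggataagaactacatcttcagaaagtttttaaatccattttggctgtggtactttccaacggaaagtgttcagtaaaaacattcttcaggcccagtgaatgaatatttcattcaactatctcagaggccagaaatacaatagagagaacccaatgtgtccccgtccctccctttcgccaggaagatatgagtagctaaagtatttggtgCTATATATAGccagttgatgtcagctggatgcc
Ldb3, chr14:34588682-34588931, minus strand, CArG box from position -35: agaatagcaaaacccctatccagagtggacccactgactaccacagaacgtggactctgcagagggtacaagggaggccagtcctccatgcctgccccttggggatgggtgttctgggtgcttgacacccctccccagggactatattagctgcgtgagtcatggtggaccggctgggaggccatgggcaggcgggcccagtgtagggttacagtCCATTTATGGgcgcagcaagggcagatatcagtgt
Ankrd1, chr19:36119845-36120094, minus strand, MCAT elements from positions -210 and -123: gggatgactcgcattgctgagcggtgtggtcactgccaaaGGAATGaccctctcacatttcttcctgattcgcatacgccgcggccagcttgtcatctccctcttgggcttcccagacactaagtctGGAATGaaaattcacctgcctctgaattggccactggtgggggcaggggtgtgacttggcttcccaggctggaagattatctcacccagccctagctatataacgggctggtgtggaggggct
Fhl2, chr1:43196762-43197011, minus strand, CArG box from position -96: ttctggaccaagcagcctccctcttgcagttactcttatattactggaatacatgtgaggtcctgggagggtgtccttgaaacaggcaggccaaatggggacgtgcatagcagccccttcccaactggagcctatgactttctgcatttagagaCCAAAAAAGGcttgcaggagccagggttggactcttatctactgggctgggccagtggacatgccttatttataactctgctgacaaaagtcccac

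Pdlim3 also held 2 MCAT elements, at positions -201 and -11 before its start. The windows of Csrp3, Actn2 and Pdlim5 held no match of these letters. CpG sites, where DNA methyltransferases act, numbered 1 in Synpo2l, 3 in Myoz2, and 5 each in Csrp3 and Ldb3, below the median of 6 over all RefSeq windows. Ankrd1 had 7, Pdlim3 11, Actn2 12 and Pdlim5 15. Fhl2 had 1 in the window shown and 21 at a second start site, 33023 bases from the gene's annotated start. That second window also held a CArG box, at position -31. The windows at second start sites of other members held 1 CpG site in Pdlim5, 2 in Csrp3, 2 in Synpo2l and 5 in Ldb3. DNA methylation was not analysed here.

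Levels per length gave the order of the members. In CPM per kilobase of exon, Ankrd1 was highest in every group, at 256 ± 26.5 after DNMT3a siRNA, 265 ± 25.0 after DNMT3b siRNA and 158 ± 19.1 in controls (SD, n = 3 each). In controls it was followed by Fhl2 (74.4 ± 3.40) and Pdlim5 (65.1 ± 8.20), whose libraries overlapped, and then, lower, by Actn2 (26.1 ± 6.70) and Ldb3 (16.8 ± 4.65), which overlapped in turn. Pdlim3 (8.17 ± 2.72) and Synpo2l (7.52 ± 1.29) overlapped each other in controls, as did Csrp3 (4.10 ± 1.63) with Tcap (2.41 ± 1.10) and Tcap with Myoz2 (2.08 ± 0.546). After DNMT3a siRNA the level per kilobase of Actn2 (63.6 ± 9.83) overlapped that of Pdlim5 (71.5 ± 11.9), and after DNMT3b siRNA that of Actn2 (78.9 ± 11.8) lay between Pdlim5 (84.4 ± 3.25) and Fhl2 (73.3 ± 2.79), overlapping both. Tcap and Myoz2 stood at the bottom in all groups. Measured against the longest transcript instead of all exons, the mean of Pdlim5 stood above that of Fhl2 in every group. Their libraries overlapped after DNMT3a siRNA (103 to 144 and 95.4 to 107). On this measure Actn2 did not overlap Pdlim5 in any group.

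After DNMT3a siRNA, 6 of the 10 Z-disc genes were higher than in controls and 0 were lower, the rises running from 1.62-fold (Ankrd1) to 4.83-fold (Csrp3). After DNMT3b siRNA, 6 were higher and 0 lower, the rises running from 1.68-fold (Ankrd1) to 4.62-fold (Csrp3). Csrp3, Actn2, Myoz2, Synpo2l and Ankrd1 rose with both siRNAs, Ldb3 passed only in the first comparison and Tcap only in the second, and Pdlim3, Pdlim5 and Fhl2 passed in neither. Of all genes tested, 4.87% were called higher with DNMT3a siRNA and 3.52% with DNMT3b siRNA, so the members' share is far above the background. They were, however, chosen as heart muscle genes with earlier results of these data known, and both comparisons use the same 3 control libraries. The count of 0 lower members also held in edgeR at an unadjusted p under 0.05 and in DESeq2 and limma-voom. The median log2 fold change of the members was 1.09 with DNMT3a siRNA and 1.30 with DNMT3b siRNA, beside 0.02 and 0.00 over all genes. In bulk RNA, a larger share of muscle cells and more of a transcript per muscle cell cannot be told apart.

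Every library of the DNMT3a group lay above every control for 9 of the 10 members, all but Pdlim5, where 14.1% of all genes did so. With DNMT3b siRNA the same held for 9 members, all but Fhl2, where 13.8% of all genes did so. Without the libraries numbered 2, 5 members changed with DNMT3a siRNA and 6 with DNMT3b siRNA, all of them higher. Of all genes, 1290 and 1266 changed in either direction there, beside 1671 and 934 with all libraries. The share of all genes called higher was not taken in this refit. With DNMT3a siRNA the Ldb3 call was lost (adjusted p = 0.154, edgeR). The 6 with DNMT3b siRNA were not the same set, since Tcap no longer passed (0.0699) and Pdlim5 did (0.0488).

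**Figure D1:**
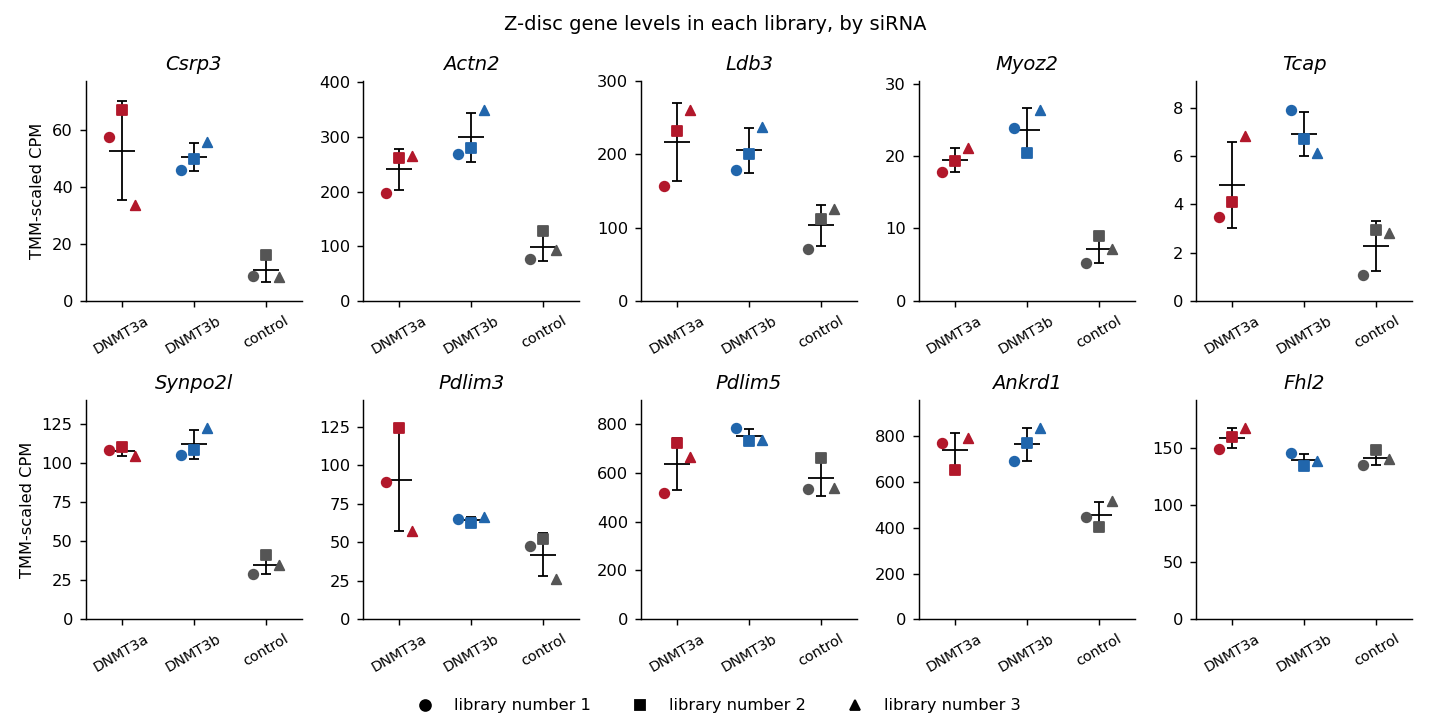
TMM-scaled CPM (y axis, linear from 0) of the 10 Z-disc genes in each of the 9 libraries, by siRNA (x axis). Points are libraries, with their number as the marker shape, and bars are the mean and SD of 3 libraries. Synpo2l lies between 104 and 122 CPM in the knockdown libraries and between 28.9 and 40.8 CPM in controls, whereas the Fhl2 libraries all lie between 134 and 167 CPM.

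Actn2 encodes alpha-actinin of the sarcomere, the rod that cross-links actin and titin in the Z-disc (ENSMUSG00000052374, chromosome 13, 12269426 to 12340760, minus strand). It was at 198, 261 and 265 CPM in DNMT3a 1, 2 and 3, at 268, 280 and 350 CPM in DNMT3b 1, 2 and 3, and at 77.5, 127 and 92.4 CPM in control 1, 2 and 3. Both knockdown groups lay wholly above the controls, and control 2 was the highest control. Against controls Actn2 rose by 1.29 ± 0.19 on the log2 scale in the DNMT3a group (SE; adjusted p = 0.00326, edgeR) and by 1.60 ± 0.19 in the DNMT3b group (adjusted p = 0.00180). Its counterparts outside the sarcomere, Actn1 and Actn4, did not pass, and Actn1 averaged 1421 ± 109 CPM after DNMT3a siRNA, 1363 ± 56.6 CPM after DNMT3b siRNA and 1289 ± 31.3 CPM in controls. The Actn2 count came to 0.0953 of the summed Actn1 and Actn4 counts after DNMT3a siRNA, 0.119 after DNMT3b siRNA and 0.0418 in controls (geometric means over 3 libraries).

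Csrp3 encodes the muscle LIM protein, which binds alpha-actinin and is known as a sensor of load in heart muscle (ENSMUSG00000030470, chromosome 7, 48830398 to 48848033, minus strand). Its level was 57.7, 67.3 and 33.6 CPM in DNMT3a 1, 2 and 3, 46.1, 49.8 and 55.8 CPM in the DNMT3b libraries, and 8.61, 16.0 and 8.25 CPM in the controls. The knockdown groups did not overlap the controls, and the lowest knockdown library, DNMT3a 3, was still above control 2. Csrp3 rose by 2.27 ± 0.32 on the log2 scale in the DNMT3a group (adjusted p = 0.00403) and by 2.21 ± 0.32 in the DNMT3b group (adjusted p = 0.00667), values above those of 99.9% of all genes tested in each comparison. Between libraries of the same number the DNMT3a rise was 6.69-fold, 4.21-fold and 4.07-fold. The widely expressed members of its family, Csrp1 and Csrp2, did not pass in either comparison, and the Csrp3 count came to 0.0666 of their sum after DNMT3a siRNA, 0.0565 after DNMT3b siRNA and 0.0156 in controls.

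Ldb3, Pdlim3 and Pdlim5 encode adaptors with a PDZ domain, by which they bind alpha-actinin. Ldb3, also called Cypher or ZASP (ENSMUSG00000021798, chromosome 14, 34526603 to 34588682, minus strand), was at 157, 232 and 261 CPM in the DNMT3a libraries, 178, 200 and 238 CPM in the DNMT3b libraries, and 71.1, 112 and 126 CPM in the controls. Number 1 was lowest in every group and no group overlapped the controls. Ldb3 rose by 1.07 ± 0.24 on the log2 scale in the DNMT3a group (adjusted p = 0.0277), and its difference of 1.00 ± 0.24 in the DNMT3b group missed the threshold (adjusted p = 0.0519). Both calls were close to the line: the first ended in 7 of 18 alternatives, among them without control 2 (0.0551), DNMT3a 2 (0.0801), DNMT3a 3 (0.0845) or DNMT3b 2 (0.0505), and the second passed in 7 of 18, among them without DNMT3a 1 (0.0282). Their adjusted p ranged from 6.44e-05 to 0.154 and from 1.80e-04 to 0.195 over the alternatives.

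Pdlim3, the actinin-associated LIM protein of muscle (ENSMUSG00000031636, chromosome 8, 45885461 to 45919548, plus strand), was at 89.4, 124 and 57.6 CPM in the DNMT3a libraries, 64.8, 62.3 and 66.4 CPM in the DNMT3b libraries, and 47.7, 52.4 and 26.1 CPM in the controls. Library number 3 was lowest among the DNMT3a libraries and among the controls, as it was for Csrp3. A log2 fold change of 1.10 ± 0.32 in the DNMT3a group did not pass (adjusted p = 0.0686), but it passed with the library number as a block (adjusted p = 0.0252, where all 18 alternatives gave 9.21e-04 to 0.201). Within numbers its DNMT3a levels were 1.87-fold, 2.38-fold and 2.20-fold those of the controls. The DNMT3a difference also passed without DNMT3a 3 (0.0301), by limma-voom (0.0405) and by DESeq2 (9.21e-04), making 4 of 18 alternatives. In the DNMT3b group the log2 difference was 0.62 ± 0.31 (adjusted p = 0.306).

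Pdlim5, the enigma homologue found in many tissues (ENSMUSG00000028273, chromosome 3, 142239590 to 142395696, minus strand), was at 517, 722 and 664 CPM in the DNMT3a libraries, 782, 729 and 735 CPM in the DNMT3b libraries, and 532, 661 and 539 CPM in controls. The DNMT3a libraries overlapped the controls, and the DNMT3b libraries lay above them. Pdlim5 differed from controls by 0.14 ± 0.13 (log2) in the DNMT3a group (adjusted p = 0.579) and by 0.37 ± 0.13 in the DNMT3b group (adjusted p = 0.119). Leaving out control 2 brought the DNMT3b value to 0.48, which passed (adjusted p = 0.0408, where all 18 alternatives gave 0.0383 to 0.306). The DNMT3b difference also passed with no filter on counts (0.0383) and without all libraries numbered 2 (0.0488).

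Myoz2, Synpo2l and Tcap encode small or heart-enriched partners of the Z-disc core. Myoz2, a calsarcin that ties calcineurin to alpha-actinin (ENSMUSG00000028116, chromosome 3, 123006206 to 123035015, minus strand), was at 17.8, 19.3 and 21.1 CPM in the DNMT3a libraries, 23.9, 20.4 and 26.4 CPM in the DNMT3b libraries, and 5.24, 8.97 and 7.18 CPM in the controls. Neither knockdown group overlapped the controls. Myoz2 rose by 1.45 ± 0.18 on the log2 scale in the DNMT3a group (adjusted p = 8.57e-04) and by 1.73 ± 0.18 in the DNMT3b group (adjusted p = 4.82e-04). Synpo2l, an actin-associated protein of heart and skeletal muscle (ENSMUSG00000039376, chromosome 14, 20658946 to 20668354, minus strand), gave the smallest adjusted p of the members in both comparisons. Its level was 108, 110 and 104 CPM in the DNMT3a libraries, 105, 108 and 122 CPM in the DNMT3b libraries, and 28.9, 40.8 and 34.8 CPM in the controls. It rose by 1.62 ± 0.12 on the log2 scale in the DNMT3a group (adjusted p = 4.03e-05) and by 1.68 ± 0.12 in the DNMT3b group (adjusted p = 5.69e-05). Its relative Synpo2 stood at 64.2 ± 10.1 CPM after DNMT3a siRNA, 61.7 ± 1.67 CPM after DNMT3b siRNA and 47.7 ± 3.98 CPM in controls.

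Tcap encodes telethonin, which caps the end of titin (ENSMUSG00000007877, chromosome 11, 98383811 to 98384953, plus strand). It was the scarcest member by count, with 39 to 258 reads in a library, and its level was 3.47, 4.09 and 6.84 CPM in the DNMT3a libraries, 7.93, 6.70 and 6.13 CPM in the DNMT3b libraries, and 1.09, 2.96 and 2.81 CPM in the controls. Control 1 was the lowest control and no knockdown library overlapped the controls. In the DNMT3a group the difference of 1.08 ± 0.36 on the log2 scale did not pass (adjusted p = 0.0942), and in the DNMT3b group Tcap rose by 1.61 ± 0.36 (adjusted p = 0.0301). The DNMT3b call ended in 6 of 18 alternatives. These were without control 3 (0.0718), DNMT3b 1 (0.0733), DNMT3b 2 (0.0945) or DNMT3b 3 (0.0949), without all libraries numbered 2 (0.0699), and with no filter on counts (0.0656). Its adjusted p ranged from 2.15e-04 to 0.0949 over the alternatives.

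Ankrd1 and Fhl2 encode proteins that bind titin and also act in the nucleus. Ankrd1, the cardiac ankyrin repeat protein, whose transcript is known to rise with load and stretch (ENSMUSG00000024803, chromosome 19, 36111961 to 36120099, minus strand), was at 771, 651 and 792 CPM in the DNMT3a libraries, 690, 769 and 835 CPM in the DNMT3b libraries, and 447, 405 and 515 CPM in the controls. The groups were apart from the controls, and control 2 was here the lowest control. Ankrd1 rose by 0.70 ± 0.12 on the log2 scale in the DNMT3a group (adjusted p = 0.00463) and by 0.75 ± 0.12 in the DNMT3b group (adjusted p = 0.00492). Fhl2, a protein made of LIM domains that is abundant in heart (ENSMUSG00000008136, chromosome 1, 43123074 to 43196984, minus strand), was at 149, 159 and 167 CPM in the DNMT3a libraries, 145, 134 and 138 CPM in the DNMT3b libraries, and 135, 148 and 140 CPM in controls. All libraries lay within 1.24-fold of each other. Fhl2 differed from controls by 0.16 ± 0.07 (log2) in the DNMT3a group (adjusted p = 0.201) and by -0.02 ± 0.07 in the DNMT3b group (adjusted p = 0.897).

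**Figure D2:**
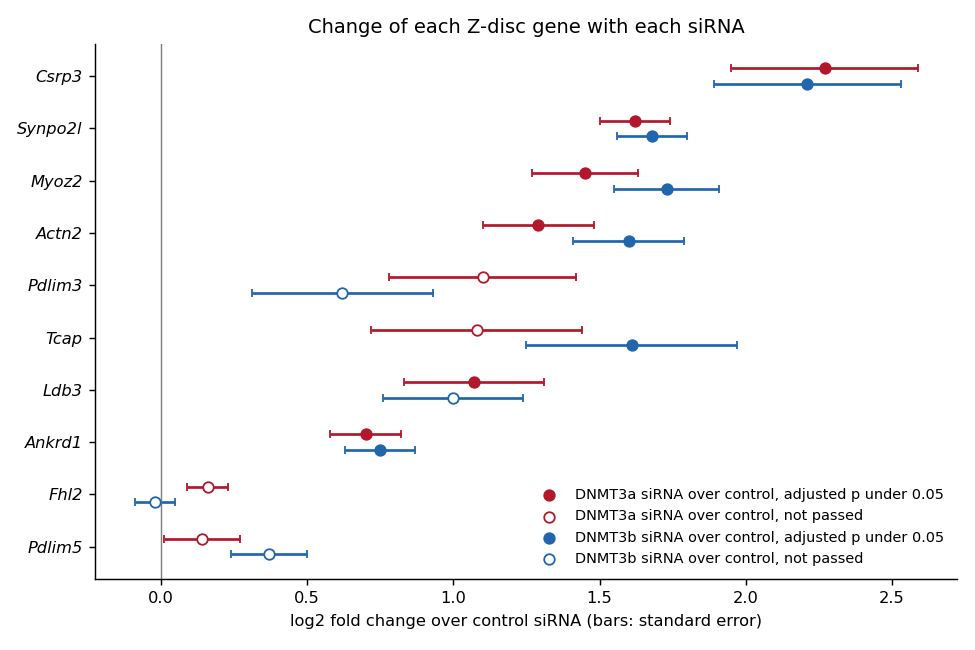
Log2 fold change over control siRNA (x axis) of each Z-disc gene (rows) with DNMT3a siRNA (upper point) and DNMT3b siRNA (lower point), with its standard error. Filled points passed an adjusted p of 0.05. Values run from 2.27 for Csrp3 with DNMT3a siRNA to -0.02 for Fhl2 with DNMT3b siRNA.

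Set directly against each other, the knockdowns gave no call among the members: 0 of 10 passed by edgeR, DESeq2 or limma-voom, where edgeR called 9.55% of all genes in either direction. Fhl2 alone had an unadjusted p under 0.05 in edgeR, at 158 ± 8.81 CPM in the DNMT3a group, against 139 ± 5.29 CPM in the DNMT3b group (log2 fold change 0.19 ± 0.07, adjusted p = 0.144). The largest differences were those of Tcap (-0.53 ± 0.35, adjusted p = 0.374) and Pdlim3 (0.49 ± 0.31, adjusted p = 0.374). Fhl2 was the 1 member that was higher in every DNMT3a library than in any DNMT3b library, as 16.2% of all genes were. Actn2 and Pdlim5 were lower in every DNMT3a library than in any DNMT3b library, as 16.1% of all genes were, by 0.31 ± 0.19 and 0.24 ± 0.13 on the log2 scale (adjusted p = 0.334 and 0.277). Csrp3 differed by 0.06 ± 0.30. A p that misses the threshold does not show that the levels were alike, and the standard errors of Csrp3, Ldb3, Tcap and Pdlim3 leave room for sizeable differences.

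The members were then set against other heart muscle transcripts in the same library. The level of the cardiomyocyte list, the mean log2 CPM of its 18 genes, was 7.16 to 7.64 after DNMT3a siRNA, 7.67 to 7.89 after DNMT3b siRNA and 5.82 to 6.50 in controls. Of its genes, 14 and 16 were higher with DNMT3a and DNMT3b siRNA, where 4.87% and 3.52% of all genes were. Actn2 kept step with the list: its log2 ratio to the list was 0.50 ± 0.14 after DNMT3a siRNA, 0.46 ± 0.10 after DNMT3b siRNA and 0.48 ± 0.02 in controls (SD, n = 3 each). The ratio of Csrp3 was higher in both knockdowns, at -1.73 ± 0.52 and -2.10 ± 0.07, against -2.73 ± 0.25 in controls, with no overlap. The ratios of Pdlim5 (1.90 ± 0.08 and 1.79 ± 0.14, against 3.05 ± 0.18) and Fhl2 (-0.10 ± 0.21 and -0.64 ± 0.13, against 1.02 ± 0.28) were lower, also with no overlap. Myoz2, Synpo2l and Tcap differed from controls by at most 0.36 in either knockdown and overlapped them, except Synpo2l in the DNMT3a group. Ankrd1 differed by -0.58 in the DNMT3a group, overlapping the controls, and by -0.89 in the DNMT3b group, with no overlap. Ldb3 and Pdlim3 differed by -0.20 and -0.18 in the DNMT3a group, overlapping the controls, and by -0.61 and -0.96 in the DNMT3b group, with no overlap. With 3 libraries against 3, the two-sided exact permutation test cannot give less than p = 0.10, the value it gave wherever a group did not overlap the controls, so that none of the 30 ratios tested could pass 0.05.

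**Figure D3:**
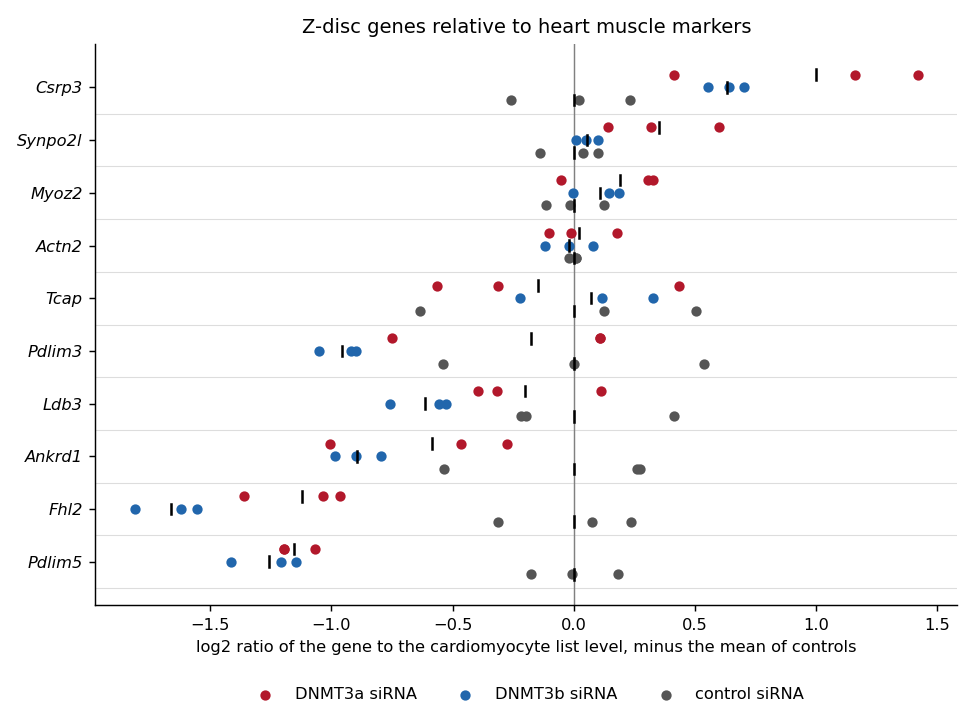
Log2 ratio of each Z-disc gene to the level of the 18-gene cardiomyocyte list in the same library, minus the mean of the controls (x axis), with 1 point per library and the group mean as a black tick. Within each gene DNMT3a siRNA is the upper row, DNMT3b siRNA the middle and control siRNA the lower. Csrp3 lies to the right of its controls, Actn2 on them, and Fhl2 and Pdlim5 to the left.

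Markers of other cell types were read in the same fits. Of 11 fibroblast markers, 4 were lower with DNMT3a siRNA and 5 with DNMT3b siRNA, and 0 were higher, where 5.22% and 2.12% of all genes were called lower. Macrophage markers were scarce, at 8.67 to 18.9 CPM in sum after DNMT3a siRNA, 21.2 to 51.9 CPM after DNMT3b siRNA and 23.8 to 66.0 CPM in controls, with 4 of 11 lower in the first comparison and 0 in the second. Skeletal muscle markers summed to 26.1 to 42.7 CPM after DNMT3a siRNA, 24.5 to 41.3 CPM after DNMT3b siRNA and 20.1 to 32.7 CPM in controls, with 1 of 8 tested higher in each. The regulators Myod1 and Myog on this list were almost absent, at no more than 0.0606 and 0.140 CPM in any library. Ckm and Myh8 reached 18.8 and 14.7 CPM. Smooth muscle and pericyte markers summed to 8311 to 9440 CPM, 8436 to 10046 CPM and 5909 to 8616 CPM in the same order of groups, with 1 of 12 higher in each. Over all genes, 4.87% were called higher with DNMT3a siRNA and 3.52% with DNMT3b siRNA. Epicardial markers summed to 1364 to 1864 CPM, 1412 to 1994 CPM and 2045 to 2438 CPM, with 3 of 9 lower and 1 higher in the first comparison and 1 lower in the second. None of these lists had a gene at 0 in all libraries. The part of these cell types in the levels of the members was not tested.

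Beyond the 10 members, 29 other genes of Z-disc or Z-disc-linked proteins were in the tables and 28 were tested. With DNMT3a siRNA 9 rose and 1 fell, with a median log2 fold change of 0.16, and with DNMT3b siRNA 10 rose and 0 fell, with a median of 0.32. Over all genes, 4.87% and 3.52% were called higher in the same order, and 5.22% and 2.12% lower. Nebl, a nebulin-like protein that ties thin filaments to the Z-disc, was at 93.9 ± 3.48 CPM after DNMT3a siRNA, 115 ± 20.3 CPM after DNMT3b siRNA and 27.4 ± 2.22 CPM in controls, with log2 fold changes of 1.78 ± 0.12 (adjusted p = 3.82e-05) and 2.07 ± 0.12 (adjusted p = 5.69e-05). Xirp1, an actin-binding protein of intercalated discs (1.74 ± 0.17 and 1.60 ± 0.17), Mypn, myopalladin (1.64 ± 0.23 and 1.86 ± 0.23), and Mlip, a lamin-interacting protein of muscle (1.42 ± 0.22 and 1.82 ± 0.22), rose with both siRNAs. So did Smpx, a small muscle protein (1.61 ± 0.26 and 2.02 ± 0.26).

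Cfl2, the muscle cofilin that severs actin filaments, went the other way after DNMT3a siRNA. It was at 56.1, 71.7 and 61.8 CPM in the DNMT3a libraries, 182, 166 and 169 CPM in the DNMT3b libraries, and 178, 168 and 178 CPM in the controls. It fell by 1.47 on the log2 scale against controls (SE 0.09, adjusted p = 3.49e-05) and differed from DNMT3b siRNA by -1.45 ± 0.09 (adjusted p = 8.02e-05). Nexn, which encodes nexilin, was higher after DNMT3a siRNA than after DNMT3b siRNA, at 203 ± 5.45 and 162 ± 13.8 CPM, and lowest in controls at 111 ± 8.60 CPM (0.33 ± 0.09 between knockdowns, adjusted p = 0.0369). Cryab, a small heat shock protein that binds desmin and titin, was lower after DNMT3a siRNA than after DNMT3b siRNA (208 ± 6.81 against 249 ± 13.7 CPM, -0.26 ± 0.07, adjusted p = 0.0445). Its controls were at 196 ± 2.33 CPM. Against them Cryab did not pass with DNMT3a siRNA (0.09 ± 0.07, adjusted p = 0.514). With DNMT3b siRNA it was higher (0.35 ± 0.07, adjusted p = 0.0176), a call that ended in 5 of 18 alternatives. The Cfl2 calls held in all 18 alternatives. The Nexn difference between knockdowns ended without any 1 of the 6 knockdown libraries (adjusted p up to 0.156), and that of Cryab in 10 alternatives, among them without control 1, control 3, DNMT3a 1, DNMT3a 3, DNMT3b 2 or DNMT3b 3 (up to 0.183).

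Relatives of the members by sequence family, many of them expressed outside muscle, made up a second list. Of 16 tested paralogs, 1 rose with DNMT3a siRNA and 1 with DNMT3b siRNA, where 4.87% and 3.52% of all genes were called higher. Of these paralogs 0 fell, and the medians were 0.07 and 0.12. Over the 18 alternatives 0 to 2 rose with DNMT3a siRNA and 0 to 3 with DNMT3b siRNA, among them 3 by DESeq2, without control 2 and without all libraries numbered 2. Pdlim1 and Pdlim7 stand in both lists. Synpo2 passed with DNMT3a siRNA (0.43 ± 0.11, adjusted p = 0.0353), and Pdlim4 with DNMT3b siRNA, at 11.8 ± 1.19 CPM, against 3.92 ± 2.27 CPM in controls (1.59 ± 0.38, adjusted p = 0.0439). The Synpo2 call ended in 9 of 18 alternatives, among them without control 1, DNMT3a 2, DNMT3a 3 or any 1 of the DNMT3b libraries (adjusted p up to 0.153), and the Pdlim4 call in 8, among them without control 3, DNMT3a 1, DNMT3a 2 or any 1 of the DNMT3b libraries (up to 0.154). With DNMT3a siRNA Pdlim4 was at 3.33 ± 0.985 CPM and did not pass against controls (adjusted p = 0.784). Fhl3, a LIM protein related to Fhl2, was at 50.5 ± 4.29 CPM after DNMT3a siRNA, 67.4 ± 6.13 CPM after DNMT3b siRNA and 59.0 ± 1.73 CPM in controls. Against controls Fhl3 passed with neither siRNA (adjusted p = 0.163 and 0.253). Between the knockdowns, Pdlim4 (-1.82 ± 0.39, adjusted p = 0.0212) and Fhl3 (-0.42 ± 0.09, adjusted p = 0.0195) were lower after DNMT3a siRNA than after DNMT3b siRNA. Each of these calls ended in 5 of 18 alternatives, both of them without DNMT3a 1, DNMT3b 2 or DNMT3b 3, Pdlim4 also without DNMT3a 2 and Fhl3 also without DNMT3a 3 (adjusted p up to 0.0919 and 0.0918).

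**Figure D4:**
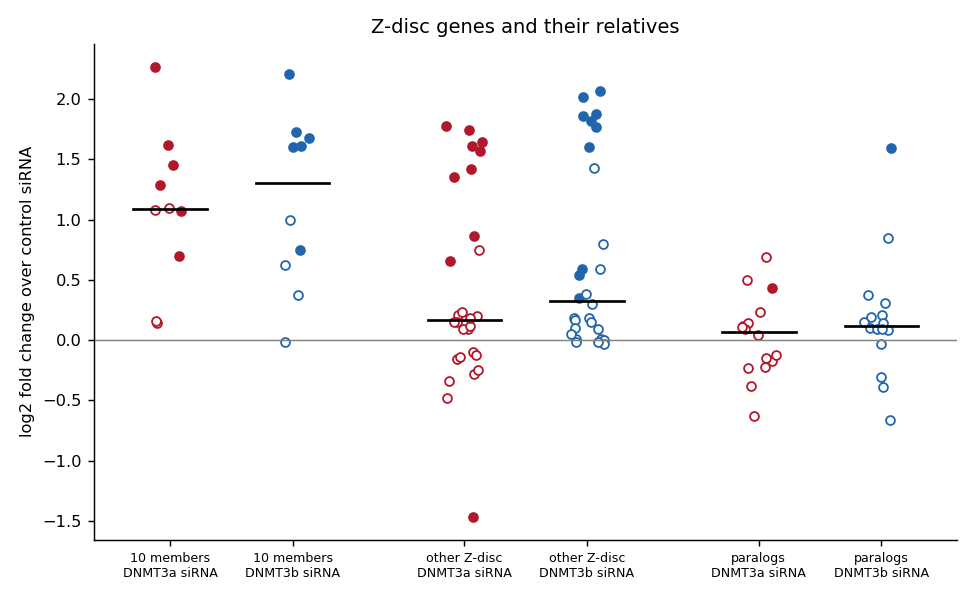
Log2 fold change over control siRNA (y axis) of the 10 members, 28 other Z-disc genes and 16 paralogs with DNMT3a siRNA (red) and DNMT3b siRNA (blue). Each point is a gene, filled where the adjusted p was under 0.05, and black lines are medians: 1.09 and 1.30 for the members, 0.16 and 0.32 for the other Z-disc genes, 0.07 and 0.12 for the paralogs.

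Among themselves the members fell into no single profile. Log2 CPM, centred on each gene's mean over the 9 libraries, was closest between Actn2 and Myoz2, with a root mean square difference of 0.13, and Synpo2l was 0.15 from Myoz2. Csrp3 was 0.41 from its nearest member, Synpo2l, and Pdlim3 0.52 from Ankrd1. Control 2 was the highest control for 8 of the 10 members, all but Ldb3 and Ankrd1, and control 1 the lowest for 7. Against the mean centred profile of the members, the nearest of 10768 protein-coding genes were Clip4 (0.06), the mitochondrial coactivator gene Ppargc1b (0.09), the sodium-calcium exchanger gene Slc8a1 (0.10), the calcium channel gene Cacna1c (0.11) and P4htm (0.12). The gene nearest to Actn2 was Srl, which encodes sarcalumenin (0.11), to Synpo2l Eef1a2, a translation factor of muscle and neurons (0.08), and to Tcap the ventricular myosin light chain gene Myl2 (0.26). Csrp3 was nearest to Pirt (0.17), Pdlim3 to Popdc3 (0.21), Ldb3 to Grip2 (0.12) and Myoz2 to Epn3 (0.09). Ankrd1 was nearest to Cdc34 (0.10), Pdlim5 to Smim11 (0.07) and Fhl2 to Dym (0.04). These distances, over 9 libraries that form 3 groups, are descriptions, and small ones are common between genes that hardly vary.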

How the data were processed

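The authors deposited 1 table of whole-number read counts per library, covering 43629 Ensembl genes and 5 summary lines. FastQC, TopHat2, HTSeq and mm10/GRCm38 are named in the submitters' processing notes. Their versions, the annotation release and the strand setting were not given in the sources used here. Between 49.2% and 56.2% of a table's total stood in the summary lines, which entered no fit. Reads that were not unique, 36.6% to 40.1% after DNMT3a siRNA, 41.5% to 42.5% after DNMT3b siRNA and 41.3% to 42.5% in controls, were counted in no gene, so genes with near-identical copies are undercounted.

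Symbols and exon lengths came from GENCODE M21 (GRCm38) for 42462 genes. Genes passing edgeR's filterByExpr (minimum count 10, total 15) were scaled by TMM, and 1 quasi-likelihood model over all 9 libraries had the siRNA group as its term (edgeR 4.0.16, R 4.3.3, 6 residual degrees of freedom, biological coefficient of variation 0.154). P-values are two-sided with Benjamini-Hochberg adjustment over 16561 genes. Changes have an adjusted p under 0.05, and each standard error is the absolute log2 change divided by the root of F. Ratios used log2 counts with a prior count of 0.5. The fit was tested on simulated counts drawn independently for each library, which cannot show how it performs where libraries deviate together.

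The members, lists and tests were chosen with earlier results of these data known. Of the other Z-disc and paralog lists, up to 6 called genes per comparison with the smallest adjusted p were named, plus the genes of fixed paralog pairs, and 1 gene that this rule names is not reported here. Nearest genes were taken by root mean square difference among protein-coding genes with a mean log2 CPM of at least 2. The cell type lists were cardiomyocyte, skeletal muscle, smooth muscle and pericyte, fibroblast, endothelial, epicardial and macrophage. Endothelial markers summed to 187 to 208 CPM after DNMT3a siRNA, 245 to 260 CPM after DNMT3b siRNA and 182 to 217 CPM in controls, with 0 and 1 of 10 higher. Their median log2 fold change was 0.05 with DNMT3a siRNA and 0.96 with DNMT3b siRNA, beside 0.02 and 0.00 over all genes.

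Libraries of the same number in the DNMT3a and control groups deviated together (r = 0.434, 0.513 and 0.459 across genes), so this comparison is read as paired from the data. The counts, p-values and ratio tests above were nevertheless made without the pairing, unless the block is named. A model that also holds the number as a block is quoted where it changes a call. Replicates differed by more than counting noise (chi-square over its degrees of freedom, 6.42 to 59.7). Alternatives were size factors, library size alone, other filters, DESeq2 1.42.0, limma-voom (limma 3.58.1), fits of only the groups compared, the block, leaving out each library, and, chosen after seeing the data, leaving out all libraries numbered 2.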

Additional observations from a re-analysis of the deposited data

How the results depend on the processing

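The calls of Csrp3, Actn2, Myoz2, Synpo2l and Ankrd1 against controls held in all 18 alternatives with either siRNA, with the same sign. Of 540 values of members under the alternatives, 499 kept their direction and side of the threshold, 13 lost the call, 15 gained one and 13 changed sign. The count of members higher ran from 5 to 8 with DNMT3a siRNA and from 5 to 7 with DNMT3b siRNA, and 0 members passed between the knockdowns in each of the 18 fits. Sign changes were found only for differences near 0, none of them called. Fhl2 with DNMT3b siRNA was 0.00 by library size alone, 0.02 without libraries numbered 2, and -0.06 to 0.01 leaving out 1 library. Between the knockdowns and without libraries numbered 2, Csrp3 was -0.16 and Ankrd1 0.04, and leaving out 1 library gave -0.15 to 0.31 for Csrp3, -0.08 to 0.27 for Ldb3, -0.10 to 0.01 for Synpo2l and -0.12 to 0.03 for Ankrd1.

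The number of all genes changed moved more. With DNMT3a siRNA it was 1671, 946 when only those 2 groups were fitted, and 868 to 1839 leaving out 1 library (971 without control 3, 868 without DNMT3a 1, 1038 without DNMT3a 3). With DNMT3b siRNA it was 934, 1715 by DESeq2, and 287 to 1781 leaving out 1 library (534 without control 1, 1781 without control 2, 449 without control 3, 384 without DNMT3b 2, 287 without DNMT3b 3). Between the knockdowns it was 1582 and 524 to 1962 leaving out 1 library (541 without DNMT3a 1, 768 without DNMT3a 3, 524 without DNMT3b 2, 555 without DNMT3b 3). The cause was not tested.

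For DNMT3b siRNA against controls, libraries of equal number were only weakly correlated (r = 0.212, 0.101 and 0.033), as they were between the knockdowns (0.161, 0.078 and 0.041). Not every library correlated best with its own number, and these values cannot settle whether the numbers pair samples in these comparisons. With the replicate block the counts there were 1801 and 2513, and with DNMT3b siRNA Ldb3 passed (adjusted p = 1.80e-04) and 3 paralogs rose. With DNMT3a siRNA the block gave 2370 genes changed against 1671 without it. Among the members it added only the Pdlim3 call, so that 7 were higher. Depth limits Tcap most, with 39 reads in its lowest library.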
